A study of Danio rerio with 15 samples.

Results

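The genes described here encode 8 secreted proteins of the acute phase, the change in blood protein production that follows infection or injury: the fibrinogen chains fga, fgb and fgg, the iron hormone hepcidin (hamp), serum amyloid A (saa), haptoglobin (hp), hemopexin (hpx) and ceruloplasmin (cp). They were chosen by gene symbol. The 8 symbols matched 9 rows among 24609 genes, because hp stands on 2 rows. RNA was sequenced from TL zebrafish at the larval stage, 4 days after fertilization, all raised with methylene blue and PTU, an inhibitor of pigment formation. The 15 libraries fall into 5 groups of 3: tfeb; tfe3a; tfe3b triple mutants injected with zymosan A, wild type injected with zymosan A, uninjected triple mutants, uninjected rraga mutants and uninjected wild type. Zymosan A is a preparation of yeast cell wall that phagocytes take up and that provokes inflammation. tfeb, tfe3a and tfe3b encode related transcription factors of lysosomal genes, and rraga encodes RagA, a GTPase that controls them from the lysosome. The labels give neither the lesion in each mutated gene nor the time between injection and freezing. No group used here received an injection without zymosan, so zymosan and the injection itself cannot be told apart, and rraga mutants were sequenced only without injection. Whether a sample pools several larvae is not given either.

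In the acute phase, cytokines of the interleukin-6 family act on liver cells through the receptor subunit gp130 and the transcription factor Stat3, while interleukin-1 acts through NF-kappaB and C/EBP factors, and the liver then changes which plasma proteins it secretes. Fibrinogen is assembled from alpha, beta and gamma chains and forms the mesh of a clot. Hepcidin blocks the iron exporter ferroportin and so keeps iron in cells. It answers both to inflammation and to iron supply, the second through bone morphogenetic proteins. Haptoglobin binds free hemoglobin, hemopexin binds free heme, and ceruloplasmin carries copper and oxidizes iron. Serum amyloid A is a lipid-binding protein of the acute phase in mammals and fish.

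Library totals ran from 12314113 to 17566540 counts, and the mitochondrial genome took 7.99% to 14.01% of them. Of the targeted genes, tfe3b had 0 to 0.858 CPM (read counts scaled to library size) in zymosan-injected triple mutants, against 2.18 to 3.22 CPM in zymosan-injected wild type. Among uninjected larvae, triple mutants had 0.075 to 0.138 CPM and wild type had 1.15 to 2.09 CPM. Transcripts of tfeb and tfe3a were present in the triple mutants, and rraga itself had 24.9 to 26.6 CPM in rraga mutants, against 12.7 to 17.8 CPM in uninjected wild type. RNA levels therefore check the triple mutant label for tfe3b alone, and do not check the rraga label. Replicate 3 of zymosan-injected wild type stood apart from its group. Its counts differed from those of replicates 1 and 2 by a chi-square per degree of freedom of 24.76 and 22.92, against 5.58 between those replicates. The next widest replicate pair was 1 and 2 of uninjected triple mutants, at 15.86. In zymosan-injected wild type, replicates 1 and 2 had the lowest library scaling factors of the series (0.85 and 0.866). Their mitochondrial shares, 14.01% and 13.47%, were the highest. Replicate 3 had 1.062 and 9.4%. Which of these libraries is the unusual one was not tested. Without replicate 3 of zymosan-injected wild type the injected genotypes differed at 16.4% of the genes then tested, against 11.9% with it, and the interaction passed at 0.258%, against 0.142%. Among the 7 genes tested here no call changed without it, and the counts of each gene list described below moved by at most 2 genes in either direction.

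Per kilobase of gene length, fga was the most abundant of the 8 genes in uninjected wild type, at 32.2 ± 3.18 CPM per kb (SD, n = 3), and fgb followed at 25.8 ± 4.32 CPM per kb. hp had 20 ± 3.96, fgg 11.4 ± 2.2, cp 8.99 ± 2.08, hamp 2.5 ± 0.978 and hpx 0.604 ± 0.228 CPM per kb. The SD ranges of fga and fgb overlapped, as did those of fgb and hp and of fgg and cp. Such ranges do not compare the genes within a library. Within each uninjected wild-type library fga exceeded fgb, at a ratio per kb of 1.19 to 1.38. The other pairs were not compared within libraries. In zymosan-injected wild type fga (104 ± 7.04 CPM per kb) and fgb (81.9 ± 11.1 CPM per kb) stood well above hp at 22.6 ± 2.21 CPM per kb, and hamp, at 13.5 ± 1.14 CPM per kb, reached the level of fgg at 15.8 ± 2.38 CPM per kb within their spread. The remaining levels are CPM without division by length and are compared only within a gene.

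**Figure D1:**
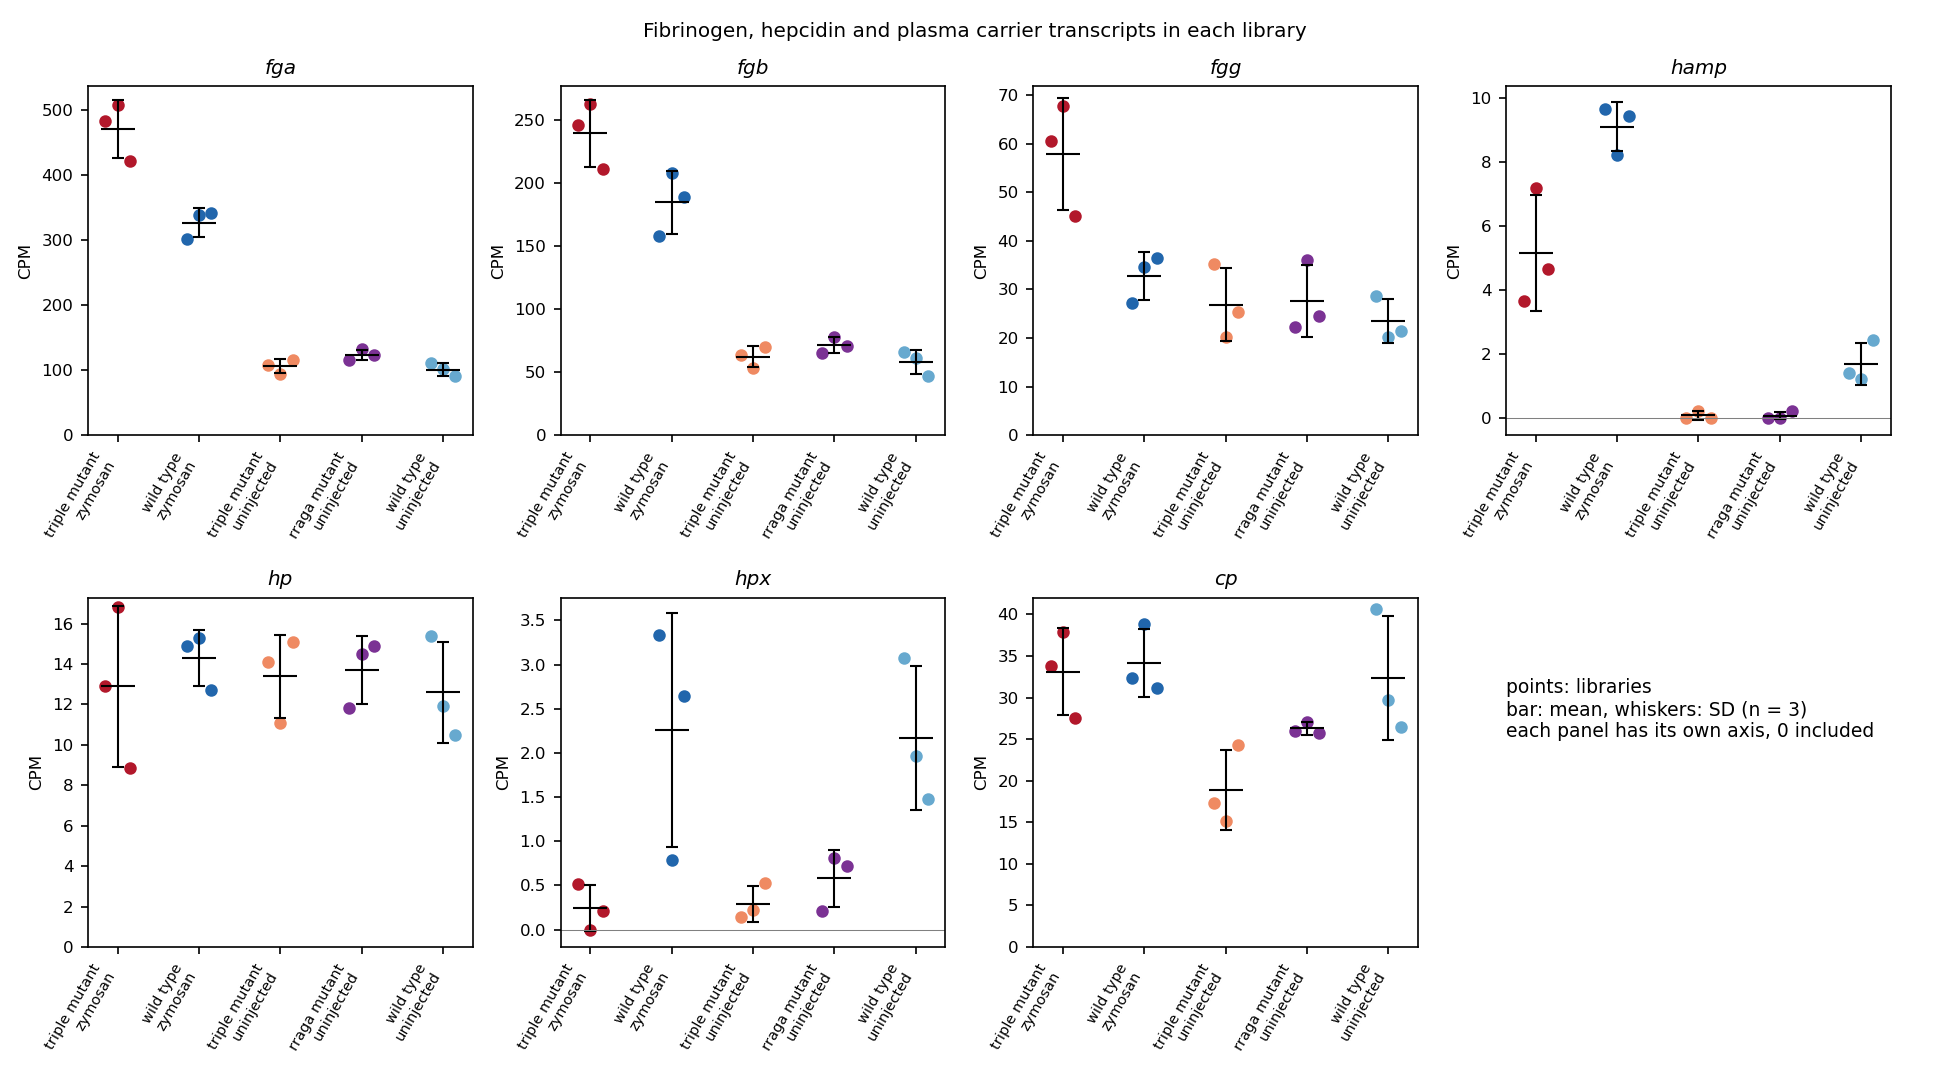
CPM of the 7 tested genes in each of the 15 libraries, by group, with the mean as a bar and whiskers of 1 SD (n = 3). Each panel has its own linear axis. fga and fgb lie highest in the zymosan groups, hamp is at or near 0 in both groups of uninjected mutants, and hpx is low in all triple mutant libraries.

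Fibrinogen transcripts were higher after zymosan in both genotypes. The alpha chain gene fga (chromosome 1, 10063501 to 10071539 on GRCz11, minus strand) had 483, 508 and 422 CPM in zymosan-injected triple mutants, against 108, 95.1 and 116 CPM in uninjected triple mutants. In wild type it had 302, 339 and 341 CPM with zymosan, against 111, 102 and 90.7 CPM without injection. Every zymosan library was thus above every uninjected one, and the triple mutant libraries were above the wild-type libraries among those injected. The log2 fold change was 2.14 ± 0.11 (SE) in triple mutants, a 4.42-fold difference (edgeR adjusted p = 2.27e-12), and 1.69 ± 0.11 in wild type, a 3.23-fold difference (edgeR adjusted p = 1.55e-10). In bulk RNA such as this, fewer cells of a type and less RNA per cell cannot be told apart.

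The beta chain gene fgb lies beside fga on chromosome 1 (10051763 to 10059496, plus strand), with 4004 bases between the genes and the 3′ ends of the pair facing each other. It had 246, 263 and 211 CPM in zymosan-injected triple mutants, against 64, 53.2 and 70 CPM in uninjected triple mutants. With zymosan the wild-type libraries had 158, 208 and 189 CPM, against 65.9, 61.7 and 47.3 CPM in uninjected wild type. The zymosan and uninjected libraries did not overlap in either genotype, and the log2 fold change was 1.94 ± 0.13 in triple mutants (edgeR adjusted p = 4.14e-10) and 1.66 ± 0.13 in wild type (edgeR adjusted p = 7.32e-09).

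The gamma chain gene fgg, 15.6 Mb away on the same chromosome (25669799 to 25679383, minus strand), had smaller fold changes. It had 60.5, 67.7 and 45.1 CPM in zymosan-injected triple mutants, against 35.2, 20.3 and 25.4 CPM in uninjected triple mutants, with no overlap and a log2 fold change of 1.1 ± 0.20 (edgeR adjusted p = 0.000374). In wild type it had 27.2, 34.6 and 36.5 CPM with zymosan, against 28.7, 20.3 and 21.4 CPM without. Those groups overlapped, and the log2 fold change of 0.48 ± 0.20, with a 95% interval of 0.09 to 0.87, did not pass the test (edgeR adjusted p = 0.15), nor did it without wild-type zymosan replicate 3 (0.39, edgeR adjusted p = 0.273).

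Of the 7 genes that could be tested, 5 rose with zymosan in triple mutants (fga, fgb, fgg, hamp and cp), where 7.64% of all 19006 tested genes rose, 5.18% fell and 12.8% changed in either direction. In wild type 3 rose (fga, fgb and hamp), where 6.07% of tested genes rose, 3.83% fell and 9.9% changed. The median log2 fold change of the 7 was 1.1 in triple mutants and 0.48 in wild type, beside medians of 0.001 and 0.003 over all tested genes. Without replicate 3 of zymosan-injected wild type, the wild-type log2 fold changes were 1.66 for fga (edgeR adjusted p = 3.03e-10), 1.65 for fgb (edgeR adjusted p = 2.11e-08) and 2.42 for hamp (edgeR adjusted p = 0.00184).

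**Figure D2:**
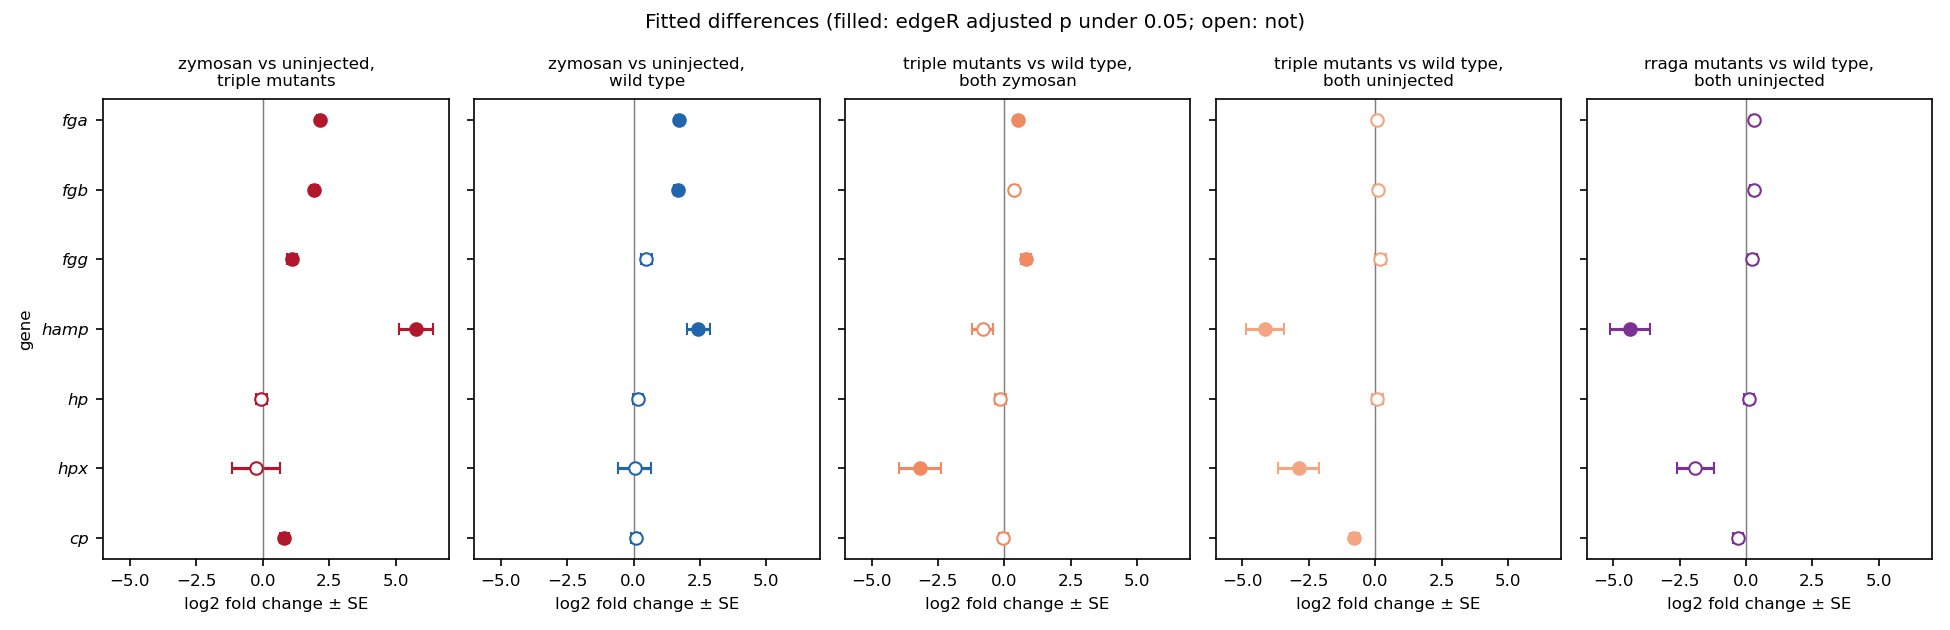
Log2 fold changes of the 7 tested genes in each comparison, with error bars of 1 SE from the edgeR fit and filled points at an adjusted p under 0.05. fga, fgb and hamp are to the right of 0 after zymosan in both genotypes, and hamp, hpx and cp are to the left of 0 in uninjected triple mutants against uninjected wild type.

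The gamma chain held a smaller share of the fibrinogen transcripts in every zymosan library than in any uninjected library. Taking the CPM per kb of the 3 chains together, fgg held 10, 10.5 and 8.8% in zymosan-injected triple mutants, against 21.3, 15.4 and 15.3% in uninjected triple mutants. In wild type it held 7.3, 7.7 and 8.4% with zymosan, against 17.7, 14.1 and 17.2% without. The mean share was lower by 7.6 percentage points in triple mutants and by 8.5 points in wild type (two-sided exact permutation p = 0.1 for each, the smallest that 3 against 3 allows). rraga mutants had fgg shares of 14, 18.5 and 14.4%, which overlapped those of uninjected wild type. The ratio of fga to fgb per kb ran only from 1.17 to 1.44 over all 15 libraries, while the summed CPM of the 3 chains ran from 159 to 838.

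**Figure D3:**
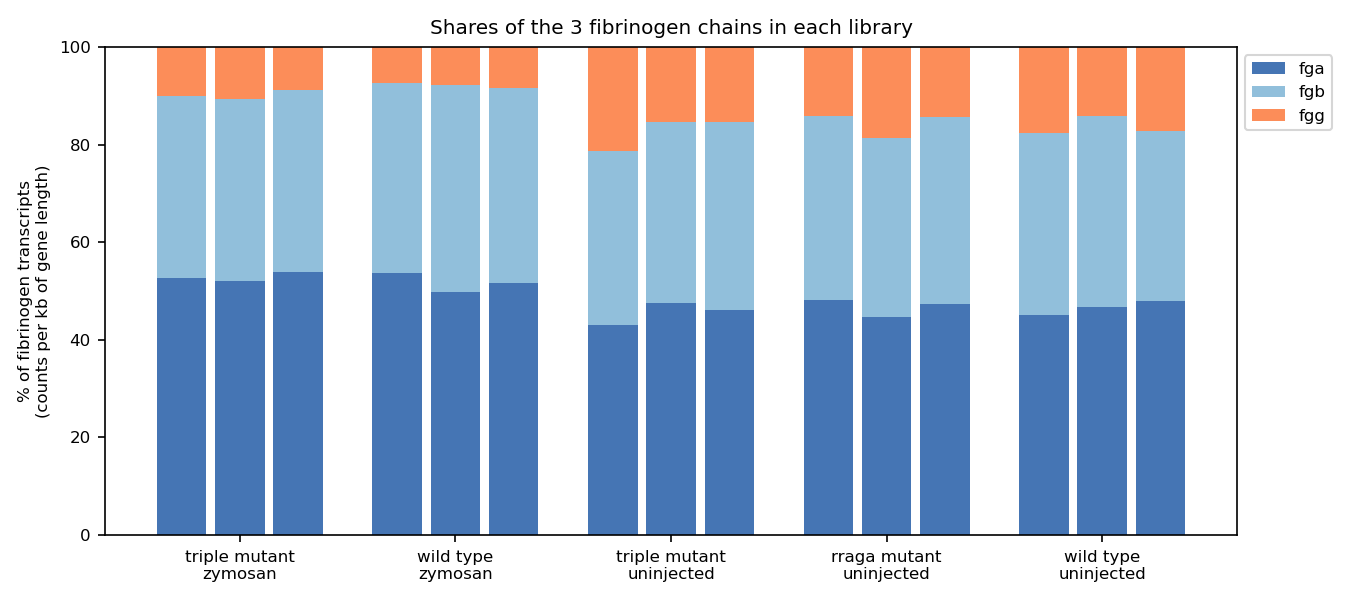
Share of fga, fgb and fgg in the fibrinogen transcripts of each library, in percent of the summed CPM per kb, 1 stacked bar a library. The fgg share is 7.3 to 10.5% in the 6 zymosan libraries and 14 to 21.3% in the 9 uninjected libraries.

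Among zymosan-injected larvae, triple mutants had more fga than wild type, by 1.44-fold (log2 0.52 ± 0.10, edgeR adjusted p = 0.00106), and more fgg, by 1.76-fold (log2 0.82 ± 0.19, edgeR adjusted p = 0.00653). fgb was 0.37 ± 0.13 higher on the log2 scale and did not pass (edgeR adjusted p = 0.0597), although DESeq2 called it (adjusted p = 0.0365). In this comparison 2 of the 7 genes were higher and 1, hpx, was lower, where 5.21% of all tested genes were higher, 6.66% lower and 11.9% either. Without replicate 3 of zymosan-injected wild type, the log2 difference was 0.56 for fga (edgeR adjusted p = 0.000971) and 0.90 for fgg (edgeR adjusted p = 0.00552). Without injection fga and fgb overlapped between the genotypes: fga averaged 107 ± 10.7 CPM in uninjected triple mutants and 101 ± 9.98 CPM in uninjected wild type, and fgb averaged 62.4 ± 8.5 CPM in uninjected triple mutants and 58.3 ± 9.76 CPM in uninjected wild type.

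Whether the zymosan effect itself differed between the genotypes was tested as an interaction. None of the 7 genes passed in edgeR, where 0.142% of all tested genes did, 0.0316% with a positive value and 0.11% with a negative one. A positive value is a more positive log2 fold change in triple mutants, which for a gene that falls with zymosan can be a smaller fall. At an unadjusted p under 0.05 there were 4, all with the larger effect in triple mutants: fga (0.45 ± 0.15 on the log2 scale, edgeR adjusted p = 0.477), fgg (0.63 ± 0.28, edgeR adjusted p = 0.809), cp (0.74 ± 0.24, edgeR adjusted p = 0.476) and hamp (3.32 ± 0.84, edgeR adjusted p = 0.211). DESeq2 called 1, hamp (3.46, adjusted p = 0.0306). Of all 19006 tested genes 5.75% had an unadjusted p under 0.05, and 2.9% had one with a positive value. The hamp value rests on the 4 counts of uninjected triple mutant replicate 2, without which the fitted difference was 6.74 against a group at 0 (edgeR adjusted p = 0.0512). Without replicate 3 of zymosan-injected wild type the interaction was 0.48 for fga (edgeR adjusted p = 0.261), 0.71 for fgg (0.471), 0.68 for cp (0.38) and 3.35 for hamp (0.172). The higher fga and fgg of injected triple mutants against injected wild type is therefore not shown to be a difference in response.

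Hepcidin had the widest relative range of the 7 genes. The gene hamp (chromosome 16, 50289916 to 50292583, plus strand) had 3.64, 7.17 and 4.65 CPM in zymosan-injected triple mutants, against 0, 0.223 and 0 CPM in uninjected triple mutants, which is 220 counts over the injected group and 4 over the uninjected one. In wild type it had 9.64, 8.22 and 9.44 CPM with zymosan, against 1.41, 1.21 and 2.44 CPM without, or 399 and 66 counts. Every injected library of either genotype lay above every uninjected library of any genotype. The log2 fold change was 5.77 ± 0.64 in triple mutants (edgeR adjusted p = 8.01e-07) and 2.44 ± 0.43, or 5.44-fold, in wild type (edgeR adjusted p = 0.000457). The triple mutant value rests on the 4 counts of uninjected replicate 2: without that library the uninjected group was at 0 and the difference was at least 48.3-fold, taking 3 counts for the whole group as the floor.

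Uninjected mutants of both kinds had less hamp than uninjected wild type. All 3 uninjected triple mutant libraries were below the lowest wild-type library, with a log2 fold change of -4.14 ± 0.71, or 17.6-fold lower (edgeR adjusted p = 0.000296), and without replicate 2 of the triple mutants the level was at least 15.2-fold lower. rraga mutants had 0, 0 and 0.215 CPM, against the same wild-type libraries, and were also below all of them (edgeR adjusted p = 0.00029). Their 3 counts against 66 give a ratio of 22.6 with a 95% counting interval of 7.41 to 113, and without replicate 3 of the rraga mutants the level was at least 15-fold lower. These comparisons share their wild-type libraries and are not independent of each other. rraga mutants and uninjected triple mutants held 3 and 4 counts, too few to tell a difference between them at this depth.

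Of the 7 genes, 3 were lower in uninjected triple mutants than in uninjected wild type (hamp, hpx and cp), where 5.82% of all tested genes were lower, 3.93% higher and 9.75% either. Of the same genes 1 was lower in rraga mutants than in uninjected wild type (hamp), where 6.41% of all tested genes were lower, 7.58% higher and 14% either. With zymosan, hamp averaged 5.15 ± 1.82 CPM in triple mutants and 9.1 ± 0.771 CPM in wild type. The injected groups did not overlap, and the log2 difference of -0.82 ± 0.39 did not pass the test (edgeR adjusted p = 0.2), nor without replicate 3 of the wild type (-0.79, edgeR adjusted p = 0.271).

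Genes that act with hepcidin were read from a list of 48 iron and heme genes, of which 42 were tested. In uninjected triple mutants against uninjected wild type 5 were higher and 3 lower, where 3.93% of all tested genes were higher and 5.82% lower. In rraga mutants against uninjected wild type 9 were higher and 5 lower, where 7.58% of all tested genes were higher and 6.41% lower. The transferrin receptor genes tfr1a and tfr1b, whose products take iron into cells, were among the higher ones. tfr1b had 71.8 ± 9.47 CPM in rraga mutants and 9.84 ± 1.95 CPM in uninjected wild type (2.86 ± 0.16 on the log2 scale, edgeR adjusted p = 4.56e-11). tfr1a had 30.9 ± 3.8 CPM in rraga mutants and 8.16 ± 0.466 CPM in uninjected wild type (edgeR adjusted p = 5.88e-09). Zymosan-injected triple mutants had 27.9 ± 3.29 CPM of tfr1b, against 11.6 ± 1.28 CPM in zymosan-injected wild type (edgeR adjusted p = 5.76e-06). The ferroportin gene slc40a1, the target of hepcidin, lay between 60.9 and 71.0 CPM in all group means and did not pass in any of the 7 comparisons. bmp6 and hfe2 (hemojuvelin), which signal iron supply to hepcidin in mammals, did not pass in any of them either. Other genes of bone morphogenetic protein signalling in the list did: in rraga mutants the target gene id1 was lower than in uninjected wild type by -0.78 on the log2 scale (edgeR adjusted p = 0.00146), id2a by -0.51 (edgeR adjusted p = 0.000856) and the inhibitor gene smad7 by -0.87 (edgeR adjusted p = 0.00293). The inhibitor gene smad6a was not called there (0.15). It was higher in uninjected triple mutants than in uninjected wild type, by 0.90 (edgeR adjusted p = 0.00179). In that comparison id1 (-0.04), id2a (-0.03) and smad7 (-0.37) were not called. With zymosan smad9 rose by 1.3 in triple mutants (edgeR adjusted p = 2.09e-06) and by 0.91 in wild type (0.000399). smad6b was lower in both (-0.58, 0.018, and -0.67, 0.00739), and id2a in triple mutants (-0.33, 0.0224). The part of this signalling in the hamp levels was not tested. Transferrin (tfa), the iron carrier of plasma, averaged 1099 ± 110 CPM in rraga mutants and 516 ± 48.4 CPM in uninjected wild type (1.09 ± 0.16, edgeR adjusted p = 6.5e-05).

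Red cell transcripts were higher in triple mutants, injected or not, and in rraga mutants. Of 9 tested markers of erythrocytes, 6 were higher in uninjected triple mutants and 5 in rraga mutants than in uninjected wild type, and 5 were higher in injected triple mutants than in injected wild type, with none lower. In these comparisons, in that order, 3.93%, 7.58% and 5.21% of all tested genes were higher, and 5.82%, 6.41% and 6.66% lower. The summed level of the 11 matched markers was 759 to 986 CPM in zymosan-injected triple mutants, 347 to 571 CPM in zymosan-injected wild type, 737 to 894 CPM in uninjected triple mutants, 914 to 1057 CPM in rraga mutants and 444 to 500.2 CPM in uninjected wild type. The red cell regulator gata1a was at 0 in every group other than zymosan-injected triple mutants. The red cell sums of injected and uninjected triple mutants overlapped, and these groups also differ in zymosan injection. The part of red cell transcripts in the hamp results was not tested.

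Heme and copper carriers followed other patterns than fga and fgb. Hemopexin (hpx, chromosome 9, 32840114 to 32847642, minus strand) was scarce in triple mutants whether or not they were injected. It had 0.52, 0 and 0.215 CPM in zymosan-injected triple mutants, against 3.34, 0.789 and 2.64 CPM in zymosan-injected wild type, or 10 and 97 counts. Without injection it had 0.138, 0.223 and 0.525 CPM in triple mutants, against 3.08, 1.96 and 1.48 CPM in wild type, or 13 and 91 counts. No triple mutant library reached a wild-type library of the same treatment. The log2 difference was -3.18 ± 0.78, or 9.09-fold lower, with zymosan (edgeR adjusted p = 0.00789) and -2.88 ± 0.76, or 7.38-fold lower, without (edgeR adjusted p = 0.0149).

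At so few counts single libraries weighed on hpx. The difference without injection lost its call without triple mutant replicate 1 (edgeR adjusted p = 0.0704) or 2 (edgeR adjusted p = 0.0791) and without wild-type replicate 1 (edgeR adjusted p = 0.0799), and its log2 value was -3.51 without triple mutant replicate 3. With zymosan it was -4.31 without triple mutant replicate 1 and -2.59 without replicate 2, and -3.05 without wild-type replicate 3 (edgeR adjusted p = 0.0168). Zymosan itself gave no call for hpx: the log2 fold change was -0.26 ± 0.91 in triple mutants (edgeR adjusted p = 0.903) and 0.04 ± 0.63 in wild type (edgeR adjusted p = 0.981), where the 95% interval of -1.2 to 1.28 leaves room for changes in either direction. rraga mutants had 0.214, 0.809 and 0.718 CPM, all below the wild-type range of 1.48 to 3.08 CPM, and did not pass (-1.90 ± 0.70, edgeR adjusted p = 0.0749).

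Ceruloplasmin (cp, chromosome 22, 38173960 to 38199988, plus strand) was lower in triple mutants than in wild type without zymosan, while with zymosan no difference was called. Uninjected triple mutants had 17.3, 15.1 and 24.3 CPM, against 40.7, 29.7 and 26.5 CPM in uninjected wild type, with no overlap (-0.78 ± 0.17, edgeR adjusted p = 0.00328). With zymosan the triple mutants had 33.8, 37.9 and 27.5 CPM, against 32.4, 38.8 and 31.2 CPM in wild type, and the groups overlapped (-0.05 ± 0.17, edgeR adjusted p = 0.901). The gene was 1.76-fold higher in injected than in uninjected triple mutants (0.81 ± 0.17, edgeR adjusted p = 0.00185), while in wild type the log2 fold change was 0.08 ± 0.17 with a 95% interval of -0.25 to 0.4 (edgeR adjusted p = 0.84). The interaction that would set these effects apart did not pass, as given above. rraga mutants had 26, 27.1 and 25.7 CPM of cp, with an uncalled log2 difference of -0.30 ± 0.17 from uninjected wild type (edgeR adjusted p = 0.262). Against uninjected triple mutants cp was the 1 gene of the 7 that was called in rraga mutants, and it was higher (0.48 ± 0.17, edgeR adjusted p = 0.0416), where 13.9% of all tested genes were higher, 11.5% lower and 25.4% either. That call was lost without any 1 of 5 of the 6 libraries, at edgeR adjusted p of 0.0619 to 0.214.

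Genes near the 3 that were low in uninjected triple mutants were counted in the same comparison, where 5.82% of all tested genes were lower, 3.93% higher and 9.75% either. Counts as small as those below cannot tell a local difference from these shares. Within 0.5 Mb, 1 of 8 tested neighbours of hamp was lower than in uninjected wild type and 0 were higher, 2 of 22 neighbours of hpx were lower and 1 higher, and 2 of 25 neighbours of cp were lower and 1 higher.

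Haptoglobin varied least of the 7. The hp gene of chromosome 8 (50143194 to 50147948, minus strand) had 12.9, 16.8 and 8.87 CPM in zymosan-injected triple mutants, against 14.9, 15.3 and 12.7 CPM in zymosan-injected wild type. Uninjected triple mutants had 14.1, 11.1 and 15.1 CPM and rraga mutants 11.8, 14.5 and 14.9 CPM, against 15.4, 11.9 and 10.5 CPM in uninjected wild type. All 5 groups overlapped, and none of the 7 comparisons passed in edgeR or DESeq2 or had an unadjusted edgeR p under 0.05. For zymosan in wild type the 95% interval of the log2 fold change ran from -0.22 to 0.56, which leaves out a rise of the size of fga or fgb.

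The other 2 rows were too low to test. The hp row on chromosome 7 (56577522 to 56585738) had 2 counts in all, 1 in zymosan-injected triple mutants and 1 in zymosan-injected wild type. saa (chromosome 7, 12950507 to 12956434) had 4 counts, all in rraga mutants (2, 2 and 0 by library), and 0 in each of the other 4 groups, the zymosan groups among them. A count of 0 over a group allows a level of up to 0.0711 CPM in zymosan-injected triple mutants and 0.0682 CPM in zymosan-injected wild type. No saa induction was detectable at this depth.

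Part of the cytokine pathway upstream of these genes rose with zymosan in both genotypes. Of 28 tested genes of the interleukin-6 and interleukin-1 pathways, 13 rose and 0 fell in triple mutants and 9 rose and 0 fell in wild type, and the median log2 fold change was 0.69 in triple mutants and 0.45 in wild type, beside 0.001 and 0.003 over all tested genes. Over all tested genes 7.64% rose and 5.18% fell in triple mutants, and 6.07% rose and 3.83% fell in wild type. The feedback inhibitor socs3b had 87.1 ± 5.24 CPM in zymosan-injected triple mutants and 15.4 ± 0.95 CPM in uninjected triple mutants (2.50 ± 0.13, edgeR adjusted p = 3.18e-12), and 104 ± 12.2 CPM in zymosan-injected wild type and 16.1 ± 1.35 CPM in uninjected wild type (2.68 ± 0.13, edgeR adjusted p = 2.48e-12). il6st, which encodes gp130, rose by 1.61 on the log2 scale in triple mutants and by 1.21 in wild type. Between injected triple mutants and injected wild type it differed by 0.11 (edgeR adjusted p = 0.671), or by 0.35 without wild-type replicate 3 (edgeR adjusted p = 0.0281). The interleukin-1 gene il1b had 34 counts in injected and 2 in uninjected triple mutants, a ratio of 18.4 with a 95% counting interval of 4.72 to 158, and 42 and 1 counts in wild type, a ratio of 38.6 with an interval of 6.55 to 1559.

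**Figure D4:**
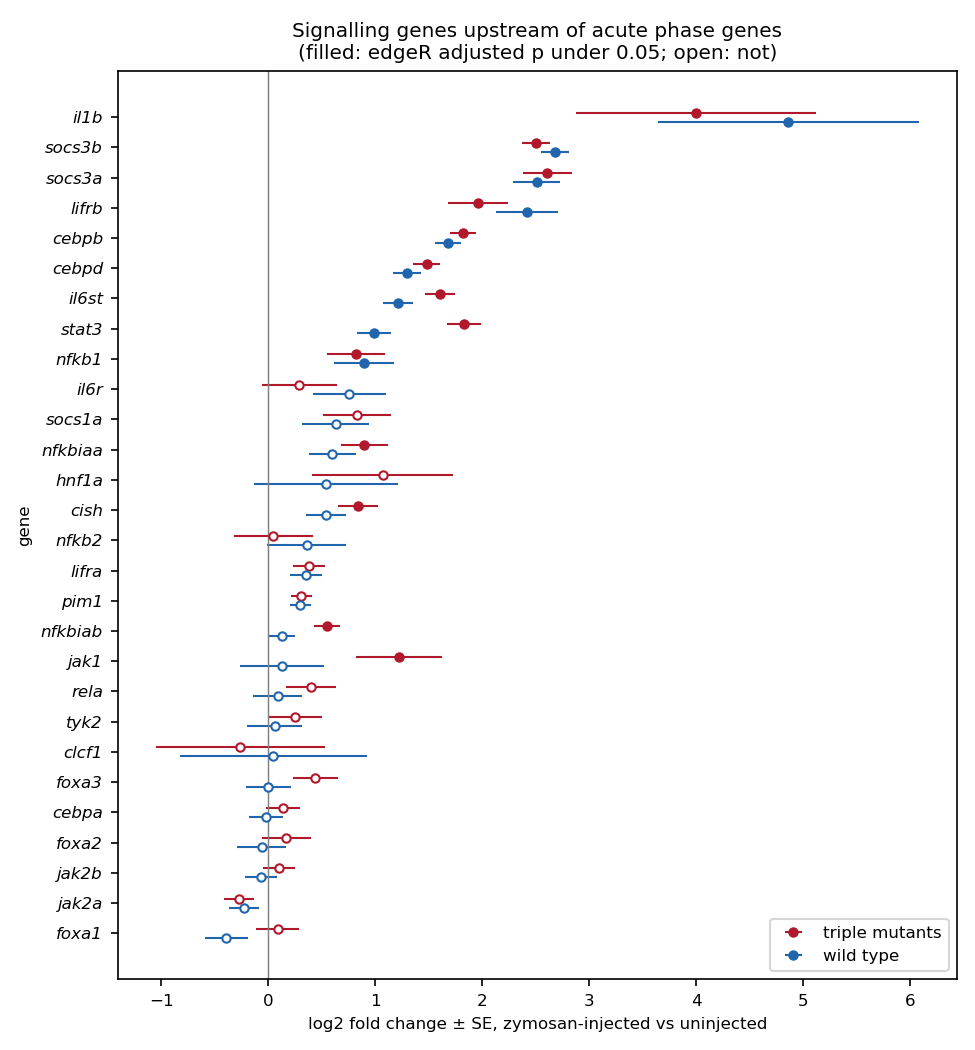
Log2 fold change of zymosan-injected against uninjected larvae for the 28 tested genes of the cytokine pathway, in triple mutants (red, upper point of each gene) and wild type (blue, lower point), with error bars of 1 SE and filled points at an edgeR adjusted p under 0.05. The 9 genes called in wild type were also called in triple mutants, and stat3 has the larger value in triple mutants (1.83 and 0.99).

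The transcription factors of the pathway differed between genotypes in opposite directions. stat3 had 54.7 ± 6.27 CPM in zymosan-injected triple mutants and 31.7 ± 7.99 CPM in zymosan-injected wild type (0.79 ± 0.16, edgeR adjusted p = 0.0012), while its uninjected levels were 15.4 ± 1.49 CPM in triple mutants and 15.9 ± 2.71 CPM in wild type. Its interaction did not pass (0.84 ± 0.23, edgeR adjusted p = 0.275), but it did without replicate 3 of zymosan-injected wild type (1.07, edgeR adjusted p = 0.0185). cebpb, the C/EBP beta gene, was lower in triple mutants at both states: 71.5 ± 7.0 CPM in zymosan-injected triple mutants and 100.1 ± 6.8 CPM in zymosan-injected wild type (-0.49 ± 0.11, edgeR adjusted p = 0.00435), and 20.3 ± 1.19 CPM in uninjected triple mutants and 31.2 ± 4.64 CPM in uninjected wild type (-0.63 ± 0.12, edgeR adjusted p = 0.000912). In all, 1 of the 28 was higher and 1 lower in injected triple mutants than in injected wild type (2 and 1 without wild-type replicate 3), and 4 were lower and 0 higher without injection. Over all tested genes 5.21% were higher and 6.66% lower with zymosan, and 3.93% higher and 5.82% lower without injection.

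Other acute phase genes gave a mixed picture. With zymosan 7.64% of all tested genes rose and 5.18% fell in triple mutants, and 6.07% rose and 3.83% fell in wild type. Of 22 tested acute phase genes, 5 rose and 0 fell with zymosan in each genotype. They included the insulin-like growth factor binding protein genes igfbp1a, with 82.0 ± 5.03 CPM in zymosan-injected and 11.5 ± 1.46 CPM in uninjected triple mutants (2.84 ± 0.16, edgeR adjusted p = 2.57e-11), and igfbp1b (3.70 ± 0.30, edgeR adjusted p = 5.57e-09). The angiotensinogen gene agt rose by 1.53 ± 0.17 on the log2 scale in triple mutants (edgeR adjusted p = 9.71e-07) and by 0.95 ± 0.17 in wild type (edgeR adjusted p = 0.000648). The complement factor B gene cfb rose by 1.49 ± 0.28 in triple mutants (edgeR adjusted p = 0.000679) and by 1.38 ± 0.27 in wild type (edgeR adjusted p = 0.00156). The pentraxin genes crp, crp1 and crp2 did not pass with zymosan in either genotype. Nearest to the threshold was crp2 in wild type, with 8.0 ± 1.31 CPM after zymosan and 4.82 ± 1.37 CPM without (0.73 ± 0.24, edgeR adjusted p = 0.0529). crp was scarce, with group means of 0.426 to 1.63 CPM. In rraga mutants 8 of the 22 were higher than in uninjected wild type and 0 were lower, among them the mannose-binding lectin gene mbl2 (10.4 ± 5.29 CPM in rraga mutants and 2.32 ± 0.359 CPM in uninjected wild type, edgeR adjusted p = 0.000107), lect2l (11.8 ± 1.15 CPM in rraga mutants and 2.81 ± 0.644 CPM in uninjected wild type, edgeR adjusted p = 0.000246) and crp2 (10.1 ± 1.56 CPM in rraga mutants and 4.82 ± 1.37 CPM in uninjected wild type, edgeR adjusted p = 0.00318). Markers of some other cell types were higher in rraga mutants as well, where 7.58% of all tested genes were higher and 6.41% lower. Of 9 tested neutrophil markers 5 were higher and 0 lower (median log2 fold change 1.0), and the 11 matched summed to 88.3 to 134 CPM in rraga mutants and 60.9 to 83.4 CPM in uninjected wild type, with the receptor gene cxcr2 at 0 in rraga mutants. Of 9 tested intestine markers 5 were higher and 0 lower (median 0.58), and the summed levels were 587 to 826 CPM in rraga mutants and 554 to 644 CPM in uninjected wild type. The 11 macrophage markers summed to 26 to 32.4 CPM in rraga mutants and 17.6 to 22.5 CPM in uninjected wild type, but of 7 tested only 1 was called, higher. Of 10 tested endothelial markers 1 was higher and 1 lower (median 0.03). The part of these cell types in the counts of acute phase genes was not tested. Fibrinogen did not pass in that comparison: fga had 116, 132 and 123 CPM in rraga mutants, all above the 90.7 to 111 CPM of uninjected wild type, with a log2 difference of 0.29 ± 0.10 (edgeR adjusted p = 0.0694).

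Of 27 tested genes of coagulation and fibrinolysis other than fibrinogen, 4 rose and 0 fell with zymosan in each genotype. Of all tested genes 7.64% rose and 5.18% fell in triple mutants, and 6.07% rose and 3.83% fell in wild type. The fibrinogen-like gene fgl2a had 4.44 ± 0.824 CPM in zymosan-injected and 1.76 ± 0.575 CPM in uninjected triple mutants (edgeR adjusted p = 0.0146), and 4.05 ± 1.02 CPM in zymosan-injected and 1.42 ± 0.598 CPM in uninjected wild type (edgeR adjusted p = 0.00983). The clotting factor V gene f5 rose in triple mutants, with 25.3 ± 9.19 CPM after zymosan and 8.72 ± 0.827 CPM without injection (1.54 ± 0.25, edgeR adjusted p = 0.000124). In wild type f5 had 15.8 ± 5.68 and 12.1 ± 2.69 CPM and was not called (0.38 ± 0.25, edgeR adjusted p = 0.391). Its interaction did not pass either (1.15 ± 0.35, edgeR adjusted p = 0.397). Tissue factor starts clotting, and the list holds its genes f3a and f3b. f3a was nearly absent from triple mutants, with 1 count in zymosan-injected triple mutants against 92 in zymosan-injected wild type. Without injection it had 0 counts in triple mutants against 56 in wild type, at least 21.2-fold lower. f3b was present in triple mutants and not called. With zymosan it had 2.76 ± 0.863 CPM in triple mutants and 4.01 ± 0.532 CPM in wild type (edgeR adjusted p = 0.414). Without injection it had 1.89 ± 0.581 CPM in triple mutants and 3.71 ± 1.1 CPM in wild type (edgeR adjusted p = 0.128). The protein C gene proca, an anticoagulant, was also lower in triple mutants, by -1.23 ± 0.30 on the log2 scale with zymosan (edgeR adjusted p = 0.0072) and by -0.99 ± 0.29 without (edgeR adjusted p = 0.0322). These are the values of ENSDARG00000038258. An overlapping row of the same symbol, ENSDARG00000093079, with which reads may be shared, did not pass (-0.57 with zymosan, edgeR adjusted p = 0.658, and -1.1 without, edgeR adjusted p = 0.389).

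Genes of plasma proteins that fall in the mammalian acute phase were not called lower with zymosan. Of 6 tested genes, 1 rose with zymosan in triple mutants, the retinol binding protein gene rbp4 (362 ± 15.6 CPM in zymosan-injected and 292 ± 26.8 CPM in uninjected triple mutants, edgeR adjusted p = 0.037). In that comparison 7.64% of all tested genes rose and 5.18% fell. In wild type none passed in edgeR or in DESeq2, and none had an unadjusted p under 0.05.

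Liver transcripts were present in every group. The 25 matched hepatocyte markers summed to 1497 to 1672 CPM in zymosan-injected triple mutants, 1322 to 1711 CPM in zymosan-injected wild type, 1174 to 1597 CPM in uninjected triple mutants, 1095 to 1335 CPM in rraga mutants and 1203 to 1487 CPM in uninjected wild type, and none was at 0 in any group. Of 23 tested, 3 rose with zymosan in triple mutants and 2 in wild type, where 7.64% and 6.07% of all tested genes rose. In uninjected triple mutants 1 was higher and 2 lower than in uninjected wild type, where 3.93% and 5.82% of all tested genes were. In injected triple mutants 4 were higher and 2 lower than in injected wild type, where 5.21% and 6.66% were. In rraga mutants 4 were higher and 1 lower than in uninjected wild type, where 7.58% and 6.41% were. The lower one was fabp10a (-0.46 on the log2 scale, edgeR adjusted p = 0.0178). Much of each sum came from apoa2, whose group means ran from 629.7 to 899 CPM, and fabp10a, with 175 to 277 CPM. Their part in the results was not tested. Intestine markers summed to 630.4 to 732 CPM in zymosan-injected and 412 to 551 CPM in uninjected triple mutants, and to 797 to 814 CPM in zymosan-injected and 554 to 644 CPM in uninjected wild type. Of 9 tested, 4 rose in triple mutants and 5 in wild type, or 3 in wild type without zymosan replicate 3. The part of these transcripts in the zymosan results was not tested.

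Likeness between genes was measured as the root mean square difference of centred log2(CPM + 0.5) over the 15 libraries. fga and fgb differed by 0.1 on this scale. fgg differed from cp by 0.49, from hp by 0.52, from fgb by 0.53 and from fga by 0.57. The measure is not scaled for how much each gene varied. The root mean square spread of fgg about its own mean was 0.52. That of fga was 0.92, of fgb 0.87, of cp 0.38 and of hp 0.23. A gene that did not vary would differ from fgg by 0.52, so these values do not show which gene fgg followed. The genes outside the set closest to fga among 13015 candidates were bnip4 (0.236), the clock gene per1b (0.245) and the clock repressor gene nr1d1 (0.258), and those closest to fgb were pik3ip1 (0.236), bnip4 (0.256) and per1b (0.257). per1b averaged 102 CPM in zymosan-injected triple mutants, 92.4 CPM in zymosan-injected wild type, 29.6 CPM in uninjected triple mutants, 29.1 CPM in rraga mutants and 31.3 CPM in uninjected wild type. The hour at which each group was frozen is not given in the labels, and its part in these levels was not tested. Closest to hamp were socs3a (0.654), fosl1a (0.732) and socs3b (0.811), and closest to fgg were ecm1b (0.222), gch1 (0.254) and the complement inhibitor gene serping1 (0.26). cp was closest to hbegfa (0.181), ehd2b (0.201) and rhoca (0.218), and hpx to extl3 at 0.468.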

How the data were processed

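The deposited counts are reads per gene made by the authors. Per the submitters' processing notes, GRCz11, HISAT2 2.0.5, StringTie 1.3.3b and featureCounts 1.5.0 were named. No source used here says whether counting used strand, and no annotated gene overlaps any of the 9 rows. The 3 deposited tables were joined by gene identifier, and a gene missing from a table was set to 0. Counts of uninjected wild type stood in more than 1 table and were identical for 22631 shared genes.

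Genes were kept by filterByExpr at a minimum count of 10, which left 19006. edgeR 4.0.16 in R 4.3.3 fitted a quasi-likelihood model with 1 mean per group to all 15 libraries, after TMM scaling with factors of 0.85 to 1.187, and 7 contrasts were tested. Adjusted p-values are Benjamini-Hochberg over all tested genes of a contrast, with a threshold of 0.05. CPM uses the TMM-scaled library size. Standard errors of log2 fold changes come from the F statistic, and intervals at 95% from these by the normal distribution, while intervals or floors from counts hold no error but that of counting. On counts simulated for zymosan against uninjected wild type over 19006 genes, the fit recovered 81 of 110 genes changed 2-fold and 90 of 90 changed 4-fold, and called 8 unchanged genes. The simulation gave every gene the same spread, changed only genes with a mean above 1 CPM and held no outlying library. How far its figures hold for the real counts, above all for genes at few counts, was not tested. DESeq2 1.42.0 was run as an alternative.

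Groups and numbers follow the labels, where samples are biological replicates of unstated origin, so each p-value reflects how far such samples vary. Among 15 replicate pairs 0 were identical. The genes and lists were chosen with earlier results of these data known. From each list, the rule names up to 3 called genes per comparison by size of log2 fold change, and a few genes of the pathway always. Not every gene so picked is given, and 1 result is not reported here. crp, crp1, f3b, id1, id2a, smad6a, smad6b, smad7 and smad9 lie outside that rule and were chosen after their values were seen. The deposited signal, in which the authors' values are counts over a size factor of their library, and the deposited FPKM values were not used.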

Additional observations from a re-analysis of the deposited data

How the results depend on the processing

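Every log2 fold change of the 7 tested genes that was called kept its sign under each alternative run: edgeR with RLE size factors, DESeq2, no filter on low counts, only the groups compared, mitochondrial genes left out, a replicate block, and each library left out in turn. For the interaction, the count of called genes was 0 in the edgeR fit and 1 (hamp) with DESeq2 and with no filter. For rraga mutants against uninjected wild type it was 1, and 3 with DESeq2 (hamp, hpx and fga), 2 with no filter and 2 with only the groups compared (hamp and hpx). For rraga mutants against uninjected triple mutants it was 1, and 0 to 1 with a library left out. Same-numbered libraries did not deviate together (correlations of -0.101 to 0.074), and the fit with the replicate number as a block lowered the last count to 0. RLE scaling and leaving out mitochondrial genes changed no call. Without a filter, fgg passed with zymosan in wild type (edgeR adjusted p = 0.0499), and fgb passed between injected triple mutants and injected wild type (edgeR adjusted p = 0.018), as it did without triple mutant replicate 3 (0.0336) or wild-type replicate 2 (0.043). The depth leaves saa and the chromosome 7 copy of hp untestable, and hamp in uninjected mutants and hpx in triple mutants rest on a few counts. The cause of these shifts was not tested.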
